A study of Mus musculus with 12 samples.

Results

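Sphingosine-1-phosphate (S1P) is a lipid messenger, and the 8 genes described here are Sphk1 and Sphk2, which make it, Sgpl1 and Sgpp1, which break it down, S1pr1, S1pr2 and S1pr4, which sense it, and Cerk, the kinase of the related lipid ceramide. They were chosen by name, as 5 enzyme genes and 3 receptor genes among the 18193 genes that a probe set with a single gene symbol measured, and 14 probe sets carried them. Sphk1 was taken in because its change at 4 h differed between the genotype labels, so its values at 0 h and 4 h are given as a description with no test. All 8 members passed the filter on low signal, as did 12791 genes in all.

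The samples were RNA of primary dendritic cells, which capture antigen and activate T cells, isolated from lymph nodes of C57BL/6 mice and cultured. The 6 groups of 2 arrays, A and B, combined a genotype label with a time: p38a-knockout (KO) at 0, 2 and 4 h and wild type (WT) at 0, 2 and 4 h. The times count from the addition of Pam3CSK4, a synthetic lipopeptide that activates TLR2, at a labelled 1 mg/ml, so all 4 groups at 2 h and 4 h had the ligand and both groups at 0 h were unstimulated. p38a is the stress-activated protein kinase encoded by Mapk14. The cells or stage in which it was deleted, and whether animals were pooled, are not given in the sources used here. Whether arrays A and B were separate animals or cultures is not stated in the labels, so p-values measure only the spread between these arrays, which may be technical. There were no untreated arrays at 2 h or 4 h, so the ligand and the hours in culture cannot be told apart. In bulk RNA, fewer cells of a type and less RNA per cell also cannot be told apart.

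Sphingosine kinases phosphorylate sphingosine, which ceramidases release from ceramide, to give S1P. A phosphatase returns S1P to sphingosine, a lyase destroys it for good, and exporters carry it out of the cell, where it acts on a family of G protein-coupled receptors. In lymphoid tissue, S1P is high in blood and lymph and low inside the organ, and lymphocytes follow that gradient out of lymph nodes through S1PR1. Dendritic cells also carry S1P receptors, which act in their migration and endocytosis.

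Signals were quantile-normalised and given as log2(signal + 16), called the log2 level below, and folds and percentages are of signal + 16. The adjusted p of limma, with Benjamini-Hochberg adjustment over 12791 genes, had to be under 0.05 for a call, and "rose", "fell" and "higher" or "lower" without a value's qualifier are kept for such calls or for Sphk1's described values. Errors after ± are standard errors (SE) of a difference unless given as SD. Levels are compared within a probe set and never between genes.

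The trimmed means of the deposited arrays differed 1.79-fold. Arrays of one group correlated at r between 0.987 and 0.99 across the tested genes, and an array's best correlation with an array of another group was 0.984 to 0.989. The targeted gene was not called lower in KO: of 6 Mapk14 probe sets, 3 passed the filter and 0 were called lower in KO, and the log2 level of the brightest ran from 7.93 to 8.37 on arrays labelled KO and from 7.44 to 8.41 on arrays labelled WT. Its averaged level was higher in KO, by 0.31 ± 0.08 (adjusted p = 0.014, limma). That call was lost without WT 2 h array B, on the deposited scale, with the mean of its probe sets and with an untrended prior. Mapk14 was not called between the labels at any single time. In WT it fell at 2 h and 4 h (−0.61 and −0.56, adjusted p = 0.0033 and 0.0067, limma), with no called change in KO. Both WT calls were lost with the mean of its probe sets and without WT 0 h array A. Where these probe sets lie relative to the deleted part of the gene is not given in the sources used here, so KO and WT below mean the arrays labelled so. All 12 of 12 dendritic cell markers passed the filter. So did 10 of 10 T cell, 8 of 9 B cell, 7 of 7 natural killer, 9 of 10 endothelial, and 11 of 13 macrophage and neutrophil markers, with Pax5, Prox1, Siglec1 and Camp below it. Of all 18193 genes 12791 passed, so passing does not show that a cell type was present. Some markers that passed lay near the filter, among them Mpo (4.61 to 5.07 over the arrays) and Cr2 (4.56 to 5.81).

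Upstream sequence is shown for the 3 members whose levels the results turn on, with the bases that match a motif in capitals. Coordinates and sequence are from the RefSeq tables of GRCm38.p6, in which 7 of 8 members had 12 upstream windows of 250 bases. Sphk1 spans chr11:116530836-116536675, and its stretch is 30 bases around a match to the NF-kB motif at chr11:116530999-116531028 (+), inside the annotated gene span and upstream of the start of one of its transcripts.
Sphk1: gcgccagactGGAACCCCCCtcccactggg
Sphk2 spans chr7:45709463-45718002, and the 250 bases before it, chr7:45718003-45718252 (-), hold a GC box and a match to TGACG, the core of the cAMP response element.
Sphk2: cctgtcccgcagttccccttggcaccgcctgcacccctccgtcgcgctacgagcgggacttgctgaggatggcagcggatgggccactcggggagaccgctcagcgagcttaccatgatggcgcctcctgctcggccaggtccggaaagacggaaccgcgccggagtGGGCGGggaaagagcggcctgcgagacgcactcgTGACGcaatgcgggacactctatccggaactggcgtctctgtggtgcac
S1pr2 spans chr9:20965952-20976793, and the 250 bases before it, chr9:20976794-20977043 (-), hold a whole cAMP response element.
S1pr2: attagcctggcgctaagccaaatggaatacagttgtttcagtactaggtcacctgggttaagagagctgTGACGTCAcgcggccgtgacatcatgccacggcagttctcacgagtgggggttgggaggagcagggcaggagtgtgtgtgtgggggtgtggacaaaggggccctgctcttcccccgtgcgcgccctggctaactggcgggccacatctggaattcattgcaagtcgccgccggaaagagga

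Both strands of all windows were searched for 6 motifs. Of 32851 windows of this length, 7.25% held the NF-kB motif, 6.75% the AP-1 motif TGANTCA, 1.55% the cAMP response element TGACGTCA, 17.8% its core TGACG, 32.7% the GC box GGGCGG and 0.536% the EGR motif GCGTGGGCG. The whole element contains the core on each strand. Among the other members, the Sgpl1 window held 3 GC boxes, and the windows of Sgpp1, Cerk and S1pr4 held none of these motifs. Of the 5 Sphk1 windows, 1 held the NF-kB motif, and 2 that overlap each other held an AP-1 motif and the core TGACG. The second Sphk2 window held 2 GC boxes. The S1pr1 upstream sequence was not analysed here. A match describes the letters of the window and is not a binding site.

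Sphk1, the inducible sphingosine kinase of immune cells, was low at 2 h and high at 4 h, and the labels changed order between 0 h and 4 h. In KO its log2 level was 8.16 and 8.09 at 0 h, then 7.38 and 7.45 at 2 h, followed by 8.21 and 8.37 at 4 h. In WT it was 7.63 and 7.37 at 0 h, then 7.35 and 7.23 at 2 h, followed by 8.82 and 8.71 at 4 h. Both labels were lowest at 2 h and highest at 4 h. KO lay above WT at 0 h, by less at 2 h, and below it at 4 h, and the arrays of the labels did not overlap at any time.

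As signals, Sphk1 stood at 281 and 315 in KO at 4 h against 270 and 256 in KO at 0 h, and at 435 and 402 in WT at 4 h against 183 and 150 in WT at 0 h. The 4 h level was thus 1.13-fold the 0 h level in KO, a log2 difference of 0.17 ± 0.11, and 2.39-fold in WT, a difference of 1.26 ± 0.11. On the deposited scale, with no normalization between arrays, the KO difference was −0.02. The difference of these responses, KO minus WT, was −1.09 ± 0.15, the value by which the gene was chosen. It was made up of a higher start in KO (0.62 ± 0.11, 1.54-fold at 0 h) and a lower end in KO (−0.47 ± 0.11, 27.7% lower at 4 h).

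At 2 h Sphk1 was below its 0 h level in both labels, by 38.9% in KO and by 13.8% in WT. Measured from 2 h, the 4 h level was 1.84-fold in KO and 2.78-fold in WT. The comparison of the labels at 2 h is the single genotype comparison whose arrays the choice of Sphk1 did not use. It gave 0.12 ± 0.11 (95% interval −0.11 to 0.36; adjusted p = 0.65, limma), which did not pass the threshold.

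The second Sphk1 probe set was dimmer, with larger standard errors. Its mean log2 levels were 5.80, 5.52 and 6.06 at 0, 2 and 4 h in KO and 5.66, 5.77 and 6.33 in WT. Its 4 h minus 0 h difference was 0.26 ± 0.23 in KO and 0.67 ± 0.23 in WT, and the difference of these responses was −0.41 ± 0.32, of the same sign as on the brighter probe set. Its KO minus WT difference was 0.14 at 0 h, with overlapping arrays, and −0.27 at 4 h, without overlap. With the mean of both probe sets as the gene's level, the difference of the 4 h responses was −0.75.

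**Figure D1:**
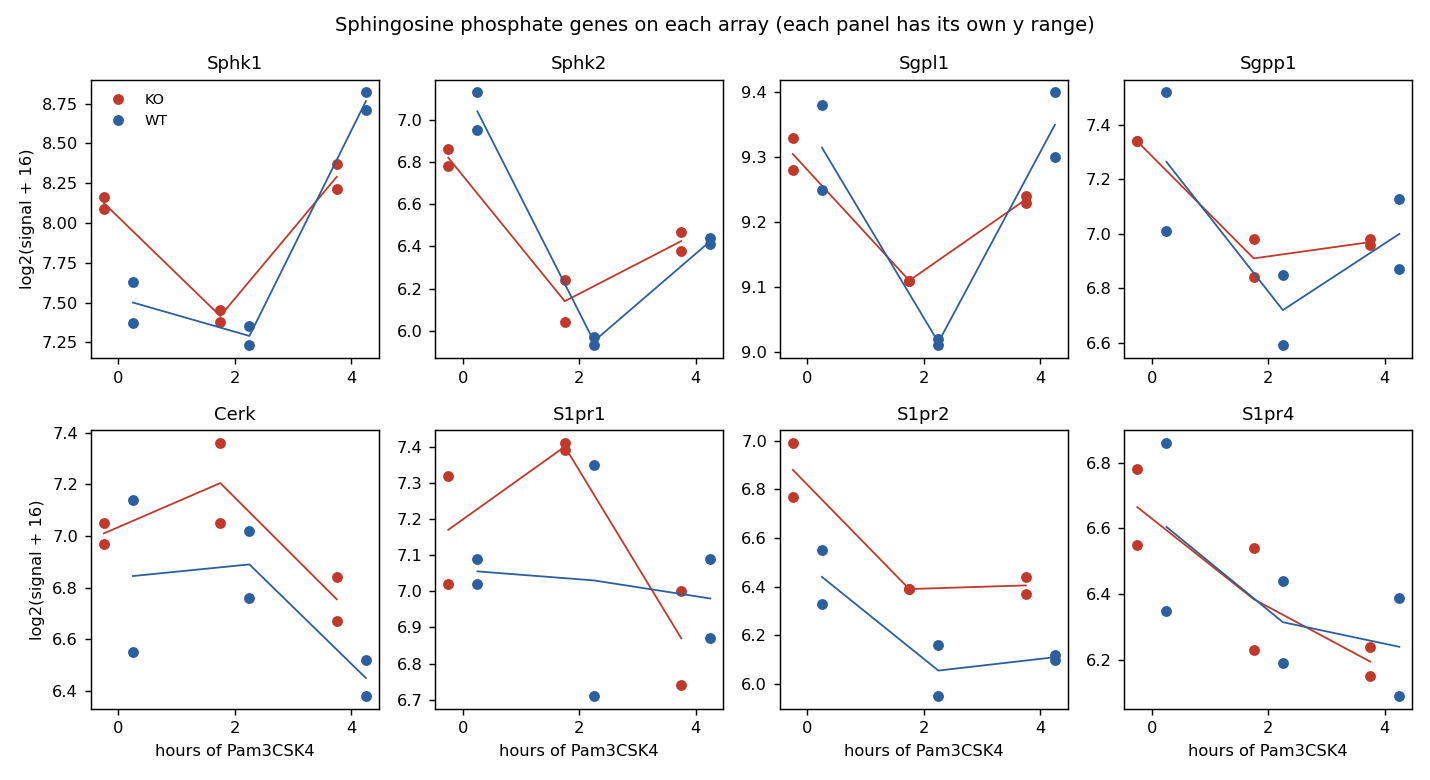
Log2(signal + 16) of the 8 members on each of the 12 arrays by hours of Pam3CSK4, with KO in red and WT in blue, lines through the means of 2 arrays, and a separate y range per panel. Sphk1 in WT ends at 8.82 and 8.71, above KO at 8.21 and 8.37, after starting below it, and S1pr2 lies higher in KO at each time.

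Genes whose levels followed Sphk1 most closely over the 12 arrays were Glipr2 (Pearson r = 0.960), Nipa1 (0.943), Zfand4 (0.923), Irgm2 (0.911) and Rnf145 (0.910), the highest of 12121 genes compared. These points share 6 group means and their arrays, and r is a description. The 5 were picked for likeness to Sphk1 on these same arrays, so traits they share with it follow largely from that pick. Such traits are a description and no support for the Sphk1 pattern. Each of the 5 was lower at 2 h than at 4 h in both labels. Their differences of 4 h responses, KO minus WT, were −0.36, −0.30, −0.45, −0.04 and −0.14. Sphk1 was chosen by this difference, so its size is not compared with theirs.

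Sphk2, the other kinase, which is found largely in the nucleus and mitochondria, fell in both labels at both times. In KO its log2 level was 6.86 and 6.78 at 0 h, then 6.24 and 6.04 at 2 h, followed by 6.38 and 6.47 at 4 h. In WT it was 6.95 and 7.13 at 0 h, then 5.93 and 5.97 at 2 h, followed by 6.44 and 6.41 at 4 h. All 2 h and 4 h arrays lay below all 0 h arrays, and under each label the 2 h arrays were the lowest.

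At 2 h against 0 h, Sphk2 fell by 0.68 ± 0.13 on the log2 scale in KO (adjusted p = 0.0017, limma), 37.6% lower. In WT it fell by 1.09 ± 0.13 (adjusted p = 2e-05, limma), 53% lower. At 4 h it was lower than at 0 h by 34.7% in WT (−0.62 ± 0.13, adjusted p = 0.0036, limma), a call lost without WT 0 h array B (adjusted p = 0.051). The KO fall at 4 h was 24.3% (−0.40 ± 0.13, adjusted p = 0.048, limma) and lay at the edge of the threshold: it was lost without any one of 10 of the 12 arrays (adjusted p up to 0.21) and kept without either KO 2 h array. It was also lost on the deposited scale (−0.61, adjusted p = 0.12).

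The Sphk2 responses of the labels were not shown to differ. The difference of the 2 h responses, KO minus WT, was 0.41 ± 0.19 (95% interval 0.01 to 0.81; adjusted p = 0.83, limma), and that of the 4 h responses was 0.21 ± 0.19 (adjusted p = 0.95, limma). The second Sphk2 probe set lay near the filter and was not called in any of these comparisons, with changes from 0 h of −0.25 and −0.31 in KO and −0.10 and −0.25 in WT at 2 h and 4 h. The genes nearest in pattern to Sphk2 over the 12 arrays were Rufy3 (r = 0.975) and Rubcn (0.965).

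Sgpl1, the lyase that irreversibly cleaves S1P, fell at 2 h in WT. In KO its log2 level was 9.33 and 9.28 at 0 h, then 9.11 and 9.11 at 2 h, followed by 9.24 and 9.23 at 4 h, and in WT it was 9.25 and 9.38, then 9.02 and 9.01, followed by 9.30 and 9.40. The 2 h arrays were the lowest under each label, and at 4 h the WT arrays overlapped their 0 h level. The 2 h fall was called in WT (−0.30 ± 0.08, 18.8% lower, adjusted p = 0.01, limma) and not in KO (−0.19 ± 0.08, adjusted p = 0.088, limma). The responses were not shown to differ (0.11 ± 0.11, adjusted p = 0.94, limma). The WT call was lost without WT 0 h array B or either WT 2 h array (adjusted p up to 0.1). The dimmer Sgpl1 probe set had changes of the opposite sign, 0.21 and 0.35 in KO and 0.07 and 0.28 in WT at 2 h and 4 h, none of them called. Genes nearest to Sgpl1 in pattern were Gpatch8 (r = 0.939) and Anp32b (0.935).

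Sgpp1, the phosphatase that turns S1P back into sphingosine, had log2 levels in KO of 7.34 and 7.34 at 0 h, then 6.84 and 6.98 at 2 h, followed by 6.96 and 6.98 at 4 h. In WT the levels were 7.01 and 7.52, then 6.85 and 6.59, followed by 6.87 and 7.13. The WT arrays at 0 h lay far apart. The 2 h fall was called in WT (−0.55 ± 0.16, 31.5% lower, adjusted p = 0.022, limma) and not in KO (−0.43 ± 0.16, adjusted p = 0.07, limma; called without either WT 0 h array), and the responses were not shown to differ (0.12 ± 0.22, adjusted p = 0.98, limma). Without WT 0 h array B the WT difference lost its call, as it did without WT 2 h array B (adjusted p up to 0.29, and differences between −0.80 and −0.29 over the arrays left out). At 4 h the differences from 0 h were −0.37 in KO and −0.26 in WT, not called. Without WT 0 h array A the WT one was called (adjusted p = 0.045).

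A second Sgpp1 probe set had the same signs (−0.35 and −0.22 in KO, −0.67 and −0.43 in WT at 2 h and 4 h). The third, which can match related sequences, had −0.16 and −0.48 in KO and 0.21 and 0.16 in WT. None of these was called. The probe set that stood for Sgpp1 has the suffix _s_at, and its WT 2 h call was lost without probe sets of suffix _x_at or _s_at. That call was also lost with the mean of probe sets, an untrended prior or only the groups compared. The KO 2 h difference was called on the deposited scale, under trimmed-mean scaling and with only the groups compared. Nearest in pattern to Sgpp1 were Pttg1ip (r = 0.954) and Cers2 (0.940), a ceramide synthase of the same pathway. Across the 12 arrays the levels of Sphk2, Sgpl1 and Sgpp1 correlated with one another at r = 0.77 to 0.82, as a description, since all 3 share the arrays and were low at 2 h. Sphk1 correlated with Sphk2 at r = 0.21, with Sgpl1 at 0.66 and with Sgpp1 at 0.18.

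Cerk, the kinase that makes ceramide 1-phosphate from ceramide, was not called in any comparison. Its log2 level was 6.97 and 7.05 at 0 h, then 7.36 and 7.05 at 2 h, followed by 6.84 and 6.67 at 4 h in KO, and 7.14 and 6.55, then 7.02 and 6.76, followed by 6.38 and 6.52, in WT. The 2 WT arrays at 0 h were far apart, and the 4 h arrays were the lowest under each label. The 4 h minus 0 h difference was −0.26 ± 0.18 in KO (adjusted p = 0.37, limma) and −0.40 ± 0.18 in WT (adjusted p = 0.15, limma). The WT one was called without WT 0 h array B (adjusted p = 0.014). Its averaged KO minus WT difference of 0.26 ± 0.10 (95% interval 0.05 to 0.48) had adjusted p = 0.12 (limma), and 0.018 without WT 0 h array A. Cttn (r = 0.933) and Mtus1 (0.928) were nearest to Cerk in pattern.

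S1pr2, the receptor known for coupling to G12 and G13 proteins and for holding cells in place, was the receptor with called changes. Its log2 level was 6.77 and 6.99 at 0 h, then 6.39 and 6.39 at 2 h, followed by 6.44 and 6.37 at 4 h in KO. In WT it was 6.33 and 6.55 at 0 h, then 5.95 and 6.16 at 2 h, followed by 6.12 and 6.10 at 4 h. At each time both KO arrays lay above both WT arrays, and under each label the 0 h arrays were the highest.

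In KO, S1pr2 fell by 0.49 ± 0.14 at 2 h (28.7% lower, adjusted p = 0.024, limma) and by 0.48 ± 0.14 at 4 h (28.1% lower, adjusted p = 0.029, limma). In WT the differences were −0.38 ± 0.14 at 2 h (adjusted p = 0.072, limma) and −0.33 ± 0.14 at 4 h (adjusted p = 0.14, limma). The responses of the labels were not shown to differ, at −0.10 ± 0.20 for 2 h and −0.15 ± 0.20 for 4 h (adjusted p = 0.98 and 0.97, limma). The second S1pr2 probe set had −0.08 and −0.13 in KO and 0.03 and −0.30 in WT at 2 h and 4 h, each ± 0.20. None of these 4 changes was called. With the mean of the S1pr2 probe sets neither KO fall was called, and the 4 h one was also lost on the deposited scale and without the filter. Both KO calls were lost without KO 0 h array B, the 2 h call without either KO 2 h array (adjusted p up to 0.18), and the 4 h call without either KO 4 h array (adjusted p up to 0.22).

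S1pr1, the receptor that guides lymphocytes out of lymph nodes, was not called in any comparison. Its log2 level was 7.02 and 7.32 at 0 h, then 7.39 and 7.41 at 2 h, followed by 6.74 and 7.0 at 4 h in KO, and 7.02 and 7.09, then 6.71 and 7.35, followed by 6.87 and 7.09, in WT. The 2 WT arrays at 2 h spanned nearly the whole range of the gene. KO minus WT at 2 h was 0.37 ± 0.18 (adjusted p = 0.34, limma), and between 0.05 and 0.69 when each array was left out in turn. Gp5 (r = 0.895) and Esyt2 (0.888) were nearest to S1pr1 in pattern.

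S1pr4, a receptor largely restricted to blood and lymphoid cells, was not called either. Its log2 level was 6.78 and 6.55 at 0 h, then 6.54 and 6.23 at 2 h, followed by 6.24 and 6.15 at 4 h in KO, and 6.86 and 6.35, then 6.19 and 6.44, followed by 6.09 and 6.39, in WT. The 4 h minus 0 h difference was −0.47 ± 0.19 in KO (95% interval −0.87 to −0.08; adjusted p = 0.096, limma) and −0.37 ± 0.19 in WT (adjusted p = 0.21, limma), with overlapping arrays in WT. Nearest in pattern were Mef2d (r = 0.914) and Lyl1 (0.900) for S1pr4, and Wdr6 (0.953) and Ttc5 (0.941) for S1pr2.

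Over the 7 members other than Sphk1, 0 were called higher and few lower after the ligand. At 2 h in KO, 2 of 7 fell (Sphk2 and S1pr2), with 11.7% of all tested genes called lower and 7.85% higher. At 4 h in KO, Sphk2 and S1pr2 again were the 2 that fell, with 10.9% of all genes called lower and 7.24% higher. In WT at 2 h, 3 of 7 fell (Sphk2, Sgpl1 and Sgpp1), with 11.5% of all genes called lower and 8.44% higher. In WT at 4 h, 1 of 7 fell (Sphk2), with 9.91% of all genes called lower and 8.31% higher. Over probe sets, 14.9% and 13.4% were called in KO and 15.4% and 13.7% in WT at 2 h and 4 h, and 0 of the 5 dimmer probe sets of these 7 members were. The median log2 difference of the 7 was −0.28 and −0.37 in KO and −0.30 and −0.33 in WT at 2 h and 4 h, against −0.06 and −0.05 in KO and −0.05 and −0.02 in WT over all genes. The 2 h and 4 h comparisons of a label share their 0 h arrays. With the mean of a gene's probe sets as its level, 1 and 0 of the 7 fell in KO and 1 and 1 in WT.

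**Figure D2:**
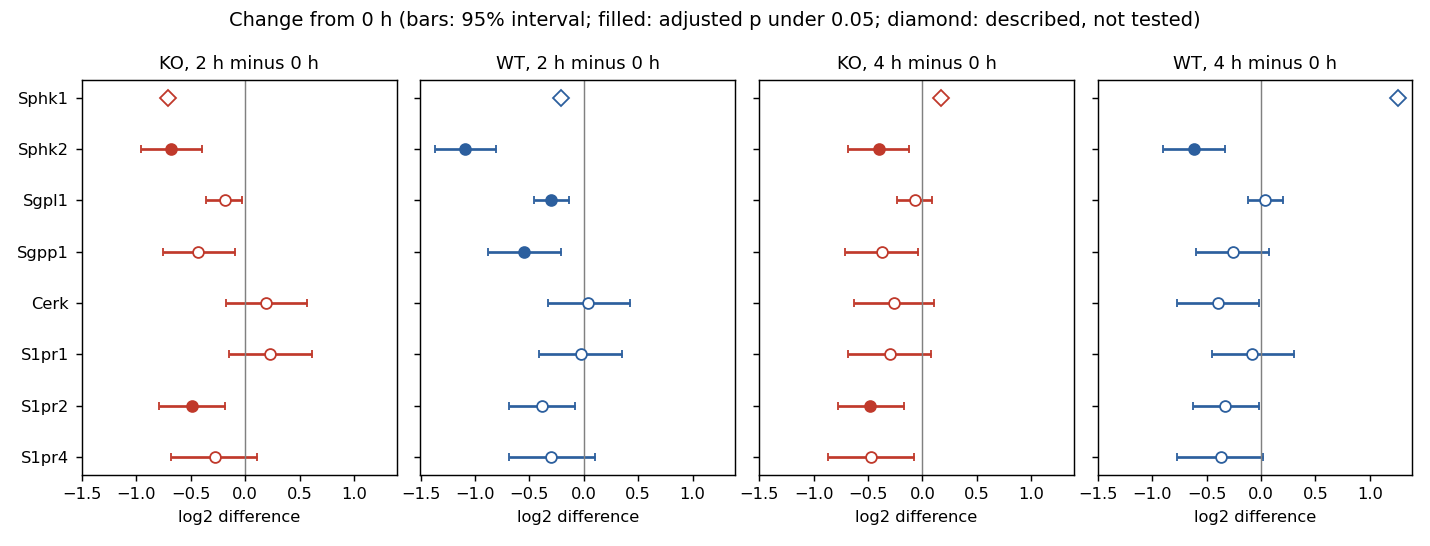
Log2 difference from 0 h of each member at 2 h and 4 h, KO panels left of WT, with 95% intervals; filled circles passed an adjusted p of 0.05, and the open diamonds of Sphk1 are described values with no test. Sphk2 is filled in all 4 panels, S1pr2 in both KO panels, and Sgpl1 and Sgpp1 in WT at 2 h.

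Between the labels at one time, 0 of the 7 were called, with 3.3% of all genes called at 0 h, 2.3% at 2 h and 2.39% at 4 h. For S1pr2 these differences were 0.44 ± 0.14 at 0 h (adjusted p = 0.13, limma) and 0.34 ± 0.14 at 2 h (adjusted p = 0.27, limma). At 4 h the S1pr2 difference was 0.29 ± 0.14 (adjusted p = 0.38, limma). Averaged over the 3 times, S1pr2 was higher in KO, with a mean log2 level of 6.56 in KO and 6.20 in WT. The difference was 0.36 ± 0.08, or 1.28-fold (95% interval 0.18 to 0.53; adjusted p = 0.01, limma). It was 1 of 7 members called there, with 6.21% of all genes called higher in KO and 4.28% lower. The call kept its side without each array in turn (adjusted p 0.012 to 0.038) and was lost on the deposited scale (0.20, adjusted p = 0.5). The second S1pr2 probe set gave 0.19 ± 0.11 (adjusted p = 0.37 over probe sets, of which 7.86% were called, limma), with arrays of the labels overlapping at 0 h and 2 h.

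Cell type markers differed between the labels beside S1pr2. Averaged over the times, 6.21% of all genes were higher and 4.28% lower in KO. Of 12 dendritic cell markers, 5 were higher and 1 lower. Of 10 T cell markers 2 were higher and 1 lower, of 8 B cell markers 1 and 0, and of 7 natural killer markers 1 and 1. The summed signal of the macrophage and neutrophil markers was 2960 to 3110 in KO against 1990 to 2120 in WT at 0 h, 2190 to 2210 against 1540 to 1670 at 2 h, and 2360 to 2390 against 1680 to 1720 at 4 h. Of the 11 above the filter, 6 were higher and 0 lower in KO on average, with 6.21% of all genes higher and 4.28% lower. The 6 were Csf1r, Adgre1, C1qa, C1qb, C1qc and Cd68. Mertk (0.29) and the neutrophil markers S100a8 (−0.16), S100a9 (−0.21), Elane (−0.22) and Mpo (0.06) were not called. The endothelial markers summed to 1440 to 1500 in KO against 1050 to 1150 in WT at 0 h. Their sums were 1590 to 1600 against 1230 to 1400 at 2 h, and 1030 to 1050 against 873 to 1040 at 4 h. Of the 9 above the filter, 5 were higher and 0 lower in KO on average, with 6.21% of all genes higher and 4.28% lower. From 0 h to 4 h, 0 of the 9 endothelial markers rose and 6 fell in KO, with 7.24% of all genes higher and 10.9% lower, and 1 rose and 2 fell in WT, with 8.31% of all genes higher and 9.91% lower. Macrophages and endothelium also carry S1P receptors, and the part of these cells in the S1pr2, S1pr1 and Spns2 values was not tested.

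Differences of responses between the labels were called for 0 of the 7 members at 2 h and at 4 h, as for nearly all genes (0.0313% and 0.0469% called). The Sphk2 difference at 2 h, 0.41 ± 0.19, was among those not called (adjusted p = 0.83, limma).

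**Figure D3:**
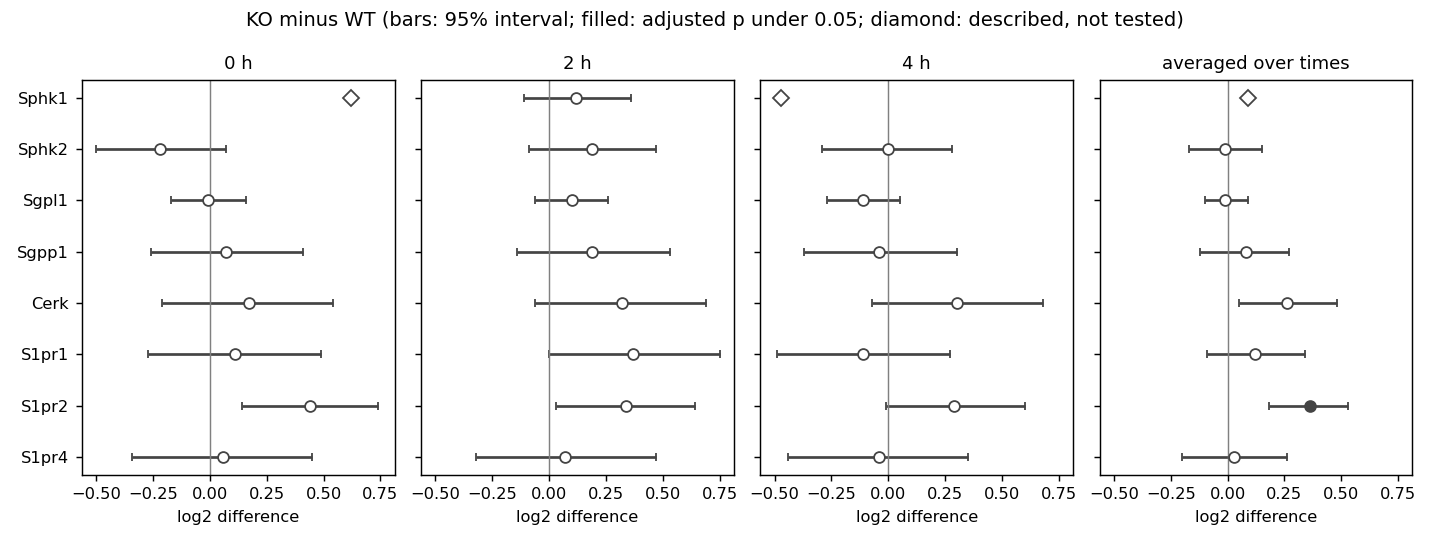
KO minus WT log2 difference of each member at 0, 2 and 4 h and averaged over the times, with 95% intervals; the filled circle passed an adjusted p of 0.05, and the open diamonds of Sphk1 are described values with no test. S1pr2 lies right of 0 in each panel and is filled on average (0.36), and Sphk1 lies at 0.62 at 0 h and −0.47 at 4 h.

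**Figure D4:**
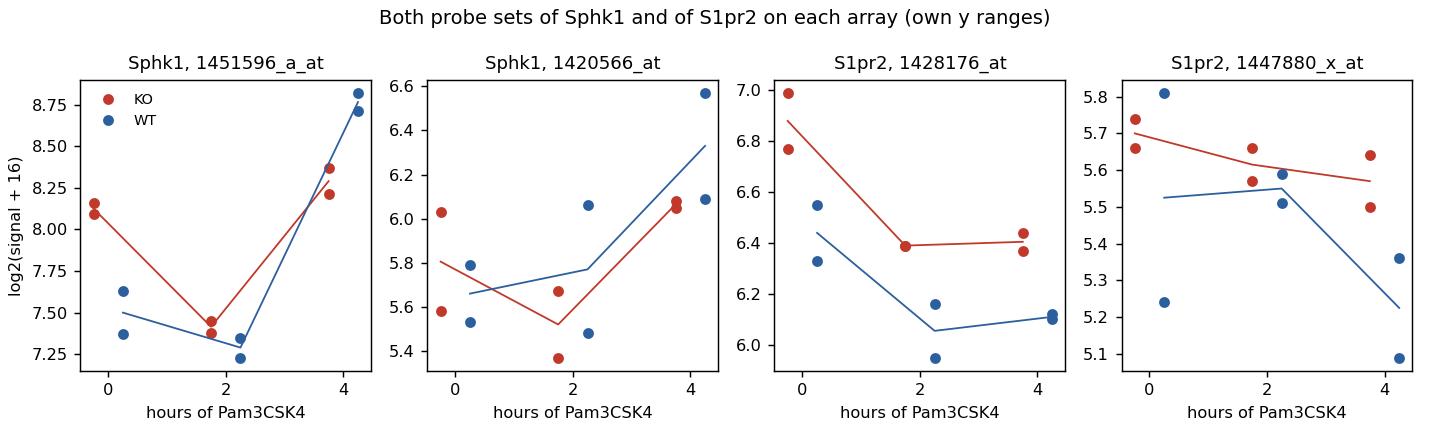
Log2(signal + 16) of both probe sets of Sphk1 and of S1pr2 on each array by hours of Pam3CSK4, KO in red and WT in blue, with lines through the means of 2 arrays and a y range per panel. The dimmer Sphk1 probe set has both WT arrays above both KO arrays at 4 h and overlapping arrays at 0 h, and the dimmer S1pr2 probe set separates the labels at 4 h.

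Other S1P genes from a list of 12 tested of 15 on the array moved in both directions. In KO, 1 rose and 0 fell at 2 h (7.85% and 11.7% of all genes), and 3 rose and 3 fell at 4 h (7.24% and 10.9% of all genes). In WT, 2 rose and 2 fell at 2 h (8.44% and 11.5% of all genes), and 2 rose and 4 fell at 4 h (8.31% and 9.91% of all genes). Their median log2 difference at 2 h and 4 h was 0.02 and −0.28 in KO and 0.12 and −0.04 in WT, where all genes had −0.06 and −0.05 in KO and −0.05 and −0.02 in WT. The KO 4 h count of falls was 1 without KO 0 h array B or KO 4 h array B. In WT the 2 h falls were 0 without WT 2 h array A and 1 without WT 0 h array A or B or WT 2 h array B, the 2 h rises were 1 without WT 2 h array B, and the 4 h falls were 2 without WT 0 h array A or either WT 4 h array. S1pr3, a receptor subtype not among the members, had the lowest p-values. Its log2 level was 7.36 and 7.52 at 0 h, then 8.51 and 8.40 at 2 h, followed by 8.74 and 8.51 at 4 h in KO, and 7.21 and 7.08, then 8.37 and 8.21, followed by 8.67 and 8.54, in WT. All arrays with ligand lay above all arrays at 0 h under each label.

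S1pr3 rose by 1.01 ± 0.11 at 2 h and 1.19 ± 0.11 at 4 h in KO (adjusted p = 5.7e-06 and 1.2e-06, limma), and by 1.15 ± 0.11 and 1.46 ± 0.11 in WT (adjusted p = 1.2e-06 and 1e-07, limma). Its other probe set above the filter had 0.49 and 0.54 in KO and 0.44 and 0.73 in WT, and the KO 2 h call was lost on the deposited scale (adjusted p = 0.11). S1pr5, the phosphatase gene Sgpp2 and Apom, whose product carries S1P in plasma, were below the filter.

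Among S1P transporters, Abcc1, a broad exporter, rose at 4 h by 0.48 ± 0.08 in KO (adjusted p = 0.00031, limma) and 0.65 ± 0.08 in WT (adjusted p = 1.4e-05, limma). Both Abcc1 calls were lost on the deposited scale (adjusted p = 0.45 and 0.21). Abca1, the cholesterol exporter, fell at 4 h in KO (−0.68, adjusted p = 0.00047, limma) and in WT (−0.45, adjusted p = 0.011, limma). With the mean of the Abca1 probe sets neither was called, and the WT value was 0.02. The WT call was lost on the deposited scale, and without WT 0 h array A or WT 4 h array A (adjusted p up to 0.099). Spns2, the dedicated S1P exporter of endothelium, named after its values were seen, fell at 4 h in KO (−0.52 ± 0.13, adjusted p = 0.013, limma), a call lost without KO 0 h array B or KO 4 h array B (adjusted p up to 0.091). In WT it fell too (−0.42 ± 0.13, adjusted p = 0.042, limma), a call lost without KO 0 h array B or any one of the KO 4 h, WT 0 h and WT 4 h arrays (adjusted p up to 0.22). Cib1, which carries SPHK1 to the membrane, fell in KO at 4 h (−0.31, adjusted p = 0.014, limma) and in WT at 2 h and 4 h (−0.32 and −0.42, adjusted p = 0.011 and 0.0019, limma). With the mean of its probe sets none of these was called and the WT 2 h value was 0.07, and none was called on the deposited scale. The KO call was lost without KO 0 h array B or either KO 4 h array (adjusted p up to 0.13), and leaving out WT 0 h array A or WT 2 h array A ended the WT 2 h call (adjusted p up to 0.09).

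On average over the times, 5 of these 12 were higher in KO and 0 lower, with 6.21% of all genes higher and 4.28% lower. Of the 12, 2 were higher without KO 0 h array B, KO 4 h array A or WT 2 h array B. Plpp3, a lipid phosphatase that acts on S1P outside the cell, was 8.58 and 8.81 in KO against 8.09 and 8.18 in WT at 0 h (0.56 ± 0.09, adjusted p = 0.0025, limma). At 2 h and 4 h the Plpp3 difference was 0.05 and 0.10 (adjusted p = 0.84 and 0.69, limma). The averaged difference, 0.24 ± 0.05 (adjusted p = 0.0079, limma), thus came mostly from 0 h on this probe set. The other Plpp3 probe set gave 0.31, 0.33 and 0.01 at 0, 2 and 4 h. Plpp1, of the same family, had an averaged difference of 0.39 ± 0.09 (adjusted p = 0.01, limma), and Spns2 one of 0.31 ± 0.08 (adjusted p = 0.019, limma), lost without any of the same 3 arrays (adjusted p up to 0.063). All 3 averaged calls were lost on the deposited scale, and that of Plpp1 also with the mean of its probe sets (0.20, adjusted p = 0.16).

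**Figure D5:**
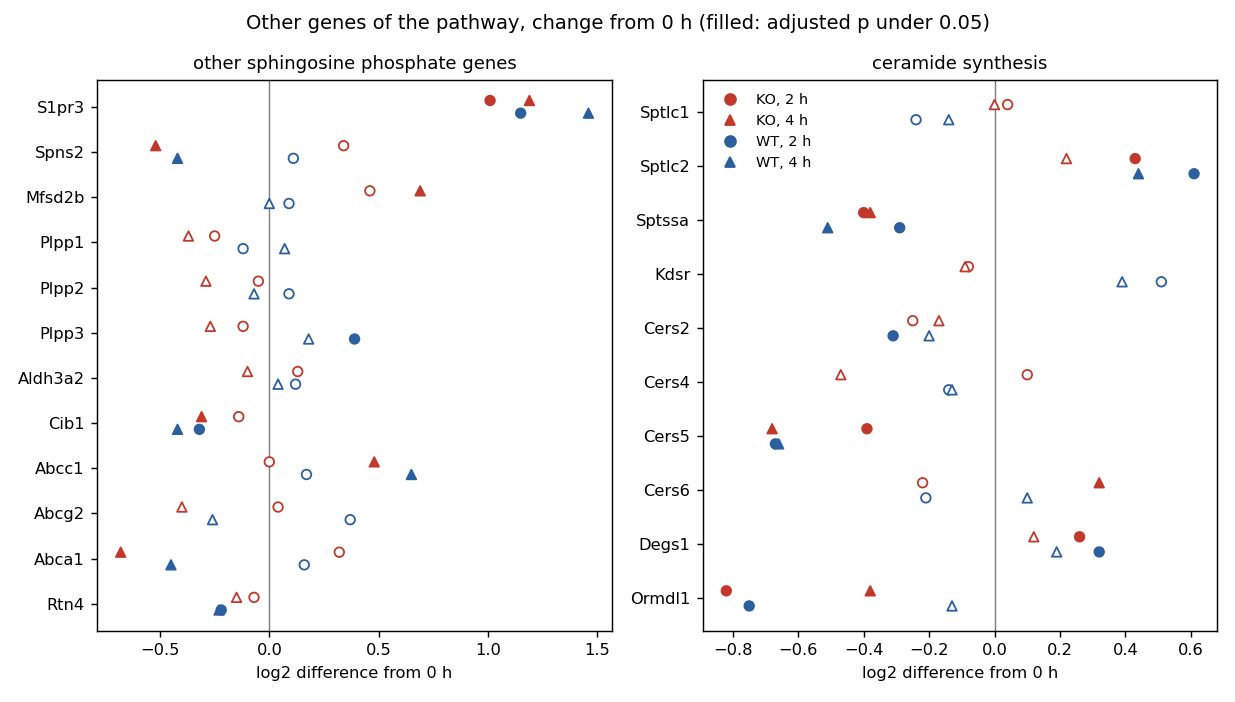
Log2 difference from 0 h of the 12 other S1P genes and the 10 ceramide synthesis genes tested, circles for 2 h and triangles for 4 h, KO in red and WT in blue, filled where the adjusted p was under 0.05. S1pr3 is filled and above 1 in all 4 comparisons, and Cers5 and Sptssa are filled and below 0 in all 4.

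Of the ceramide synthesis genes, 10 were tested of 14 on the array. In KO, 2 rose and 3 fell at 2 h, and 1 rose and 3 fell at 4 h, with 7.85% and 7.24% of all genes called higher and 11.7% and 10.9% lower at these times. In WT, 2 rose and 4 fell at 2 h, and 1 rose and 2 fell at 4 h, with 8.44% and 8.31% of all genes called higher and 11.5% and 9.91% lower. Their median log2 difference was −0.15 and −0.13 in KO and −0.23 and −0.13 in WT, where all genes had −0.06 and −0.05 in KO and −0.05 and −0.02 in WT. The KO rises were 0 at 2 h without KO 0 h array A or KO 2 h array B (1 without KO 0 h array B) and 0 at 4 h without KO 0 h array A or KO 4 h array B, and the KO 4 h falls were 1 without KO 4 h array B. In WT at 2 h the rises were 1 without WT 0 h array B or WT 2 h array A and the falls 2 without either of these or WT 2 h array B, and the 4 h rises were 0 without WT 0 h array B or WT 4 h array A.

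The ceramide synthase gene Cers5 fell at 2 h and 4 h in KO (−0.39 and −0.68, adjusted p = 0.0073 and 6.3e-05, limma) and in WT (−0.67 and −0.66, adjusted p = 7.1e-05 and 8.2e-05, limma). Its KO 2 h call was lost without KO 0 h array B (adjusted p = 0.066), and with the mean of its probe sets only the WT 4 h call of these 4 was kept. Ormdl1, which restrains serine palmitoyltransferase, fell at 2 h in KO (−0.82, adjusted p = 1.3e-05, limma) and in WT (−0.75, adjusted p = 2.9e-05, limma). Sptlc2, a subunit of that enzyme, rose at 2 h in KO (0.43, adjusted p = 0.011, limma) and in WT (0.61, adjusted p = 0.00066, limma). The KO call was lost without KO 0 h array A or KO 2 h array B, and with the mean of its probe sets. On the deposited scale neither was called. The other Sptlc2 probe sets gave −0.15 and 0.15 in KO and 0.17 and 0.44 in WT at 2 h.

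Degs1, the desaturase that makes ceramide, was the one gene of that list called between the labels. Its log2 level was 9.63 and 9.63 in KO against 9.30 and 9.17 in WT at 0 h, 9.84 and 9.93 against 9.58 and 9.52 at 2 h, and 9.74 and 9.77 against 9.39 and 9.46 at 4 h. KO lay above WT at each time without overlap. The averaged difference was 0.36 ± 0.04 (adjusted p = 4.6e-05, limma; at most 0.00038 without one array), and the other Degs1 probe set gave 0.26. The call was lost on the deposited scale (adjusted p = 0.65).

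Ceramide, sphingomyelin and glycolipid turnover genes include those that release sphingosine. Of 27 tested, 1 rose and 9 fell at 2 h and 1 rose and 11 fell at 4 h in KO, and 1 rose and 7 fell at 2 h and 1 rose and 6 fell at 4 h in WT. Over all genes falls also outnumbered rises: the KO shares were 11.7% lower with 7.85% higher (2 h) and 10.9% lower with 7.24% higher (4 h), and the WT shares 11.5% lower with 8.44% higher (2 h) and 9.91% lower with 8.31% higher (4 h). The median log2 difference of the 27 was −0.26 and −0.32 in KO and −0.15 and −0.23 in WT, where all genes had −0.06 and −0.05 in KO and −0.05 and −0.02 in WT. The KO falls were 4 at 2 h and 6 at 4 h without KO 0 h array B, and 7 at 4 h without KO 0 h array A or KO 4 h array A. Galc, the lysosomal galactosylceramidase, fell in KO (−1.45 and −1.17) and in WT (−1.56 and −1.32) at 2 h and 4 h (highest adjusted p = 0.00014, limma). Asah1, the acid ceramidase that yields the sphingosine on which the kinases act, fell in KO (−0.40 and −0.46) and in WT (−0.41 and −0.51) at these times (highest adjusted p = 0.0017, limma), with both 4 h calls lost on the deposited scale (adjusted p = 0.14 and 0.12). Psap, whose products activate lysosomal sphingolipid hydrolases, fell in KO (−0.35 and −0.46) and in WT (−0.33 and −0.34). Its KO 2 h call and both WT calls were lost under trimmed-mean scaling (adjusted p 0.085 to 0.28), and both WT calls also on the deposited scale (adjusted p up to 0.3). B4galt5, which makes lactosylceramide, was the gene that rose, by 0.84 and 0.37 in KO and by 0.82 and 0.55 in WT. Its KO 4 h rise was lost without any one array of either group compared, so that the count there was 0, and all 4 rises were lost on the deposited scale. They were also lost without probe sets of suffix _x_at or _s_at, where the 2 h values were 0.11 in KO and 0.12 in WT. Between the labels, 5 of the 27 were higher and 0 lower in KO on average (3 higher without WT 2 h array A), with 6.21% of all genes higher and 4.28% lower. Gla, the alpha-galactosidase, was among them (0.35 ± 0.06, adjusted p = 0.0015, limma). The Gla call was lost on the deposited scale (0.18, adjusted p = 0.57) and with the mean of its probe sets (0.15, adjusted p = 0.28), and its other probe set above the filter gave 0.01.

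Receptor coupling and trafficking genes numbered 30 tested of 30. In KO, 4 rose and 5 fell at 2 h (7.85% and 11.7% of all genes), and 2 rose and 6 fell at 4 h (7.24% and 10.9% of all genes). In WT, 4 rose and 5 fell at 2 h (8.44% and 11.5% of all genes), and 3 rose and 8 fell at 4 h (8.31% and 9.91% of all genes). Their median log2 difference was −0.04 and −0.14 in KO and 0.03 and −0.10 in WT, where all genes had −0.06 and −0.05 in KO and −0.05 and −0.02 in WT. The KO 4 h rises were 4 without either KO 0 h array and the falls 3 without KO 0 h array A. In WT at 2 h the rises were 2 without WT 0 h array A or either WT 2 h array and the falls 3 without WT 2 h array B or either of the 0 h arrays, and the WT 4 h falls were 5 without either WT 0 h array, 3 without WT 4 h array A and 4 without WT 4 h array B.

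Cd69, whose product binds S1PR1 and draws it from the cell surface, had log2 levels in KO of 7.28 and 6.95 at 0 h, then 8.85 and 8.70 at 2 h, followed by 9.16 and 9.16 at 4 h, and in WT of 7.08 and 7.24, then 8.77 and 8.87, followed by 8.72 and 8.97. It rose by 1.66 and 2.04 in KO and by 1.66 and 1.69 in WT at 2 h and 4 h (adjusted p at most 5.8e-08, limma), while S1pr1 itself was not called.

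Both arrestin genes, whose products uncouple and internalise receptors, fell. Arrb2 fell at 2 h and 4 h in KO (−0.99 and −1.09) and in WT (−0.88 and −1.21; adjusted p at most 1.7e-05, limma), and Arrb1 fell at 4 h in KO (−1.42) and in WT (−1.34; adjusted p = 1.5e-05 and 2.4e-05, limma). Rgs1, which limits G protein signalling, rose by 0.46 and 0.51 in KO and by 0.24 and 0.30 in WT (with the WT 2 h call lost without WT 0 h array A or either WT 2 h array, adjusted p up to 0.13, and all 4 calls on the deposited scale), and it was lower in KO than in WT on average (−0.25 ± 0.04, adjusted p = 0.00032, limma). Rhoa, a small GTPase downstream of G12 and G13 proteins, was lower in KO on average by its brightest probe set (−0.22 ± 0.04, adjusted p = 0.00057, limma). The other bright Rhoa probe set gave −0.03, and the call was lost with the mean of probe sets (−0.09, adjusted p = 0.41). Of the 30 genes, 2 were higher and 4 lower in KO on average, with 6.21% of all genes higher and 4.28% lower.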

How the data were processed

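Each deposited intensity was the linear signal of 1 probe set on 1 array, which the authors computed by MAS5, as per the submitters' processing notes. Its version, scaling and detection calls are not given in the sources used here. RNA came from Trizol extraction with column clean-up and 3′ in vitro transcription labelling, per the labels' protocols. Trimmed means of these signals ran from 66.6 to 119. Of 45101 probe sets, 34945 carried 1 gene symbol in the platform annotation and 932 several, which were left unnamed. Quantile normalization over the 12 arrays was followed by log2(signal + 16), which understates folds of low genes. The probe set with the highest mean stood for its gene, and the filter was the 40th percentile of the means of all probe sets (log2 level 4.73, signal 10.6).

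The 6 group means were fitted together in limma 3.58.1 under R 4.3.3, with a trended prior (6 residual and 9.13 prior degrees of freedom) and two-sided tests. Probe sets had a fit of their own. The procedure was tested on simulated data. The number of arrays, 2 a group, limits the precision.

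The members, gene lists and tests were chosen with earlier results of these data known. Genes named are the members, up to 3 called genes with the smallest p per list and comparison, the genes nearest in pattern (5 for Sphk1, 2 for each other member), and Mapk14. Alternatives comprised the deposited scale, scaling to trimmed means, a pseudocount of 1 or 64, no filter or one at the 60th percentile, a mean over a gene's probe sets, leaving out probe sets of suffix _x_at or _s_at, an untrended prior, fitting only the groups compared, the array letter as a block, a threshold of 0.1, and leaving out each array.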

Additional observations from a re-analysis of the deposited data

Results flagged for a closer look

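The difference of the 4 h responses of Sphk1, KO minus WT, was −1.09 on the log2 scale. It is given here because the 2 labels differed in the same contrast of 4 h against 0 h, with a difference of 0.17 in KO and 1.26 in WT. The gene was chosen by this value, so it has no test. With each array left out in turn it ran from −1.22 to −0.96. That range uses the arrays by which the gene was chosen, so it describes the value and is no support for it.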

How the results depend on the processing

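Precision is limited by 2 arrays a group. On the deposited scale, which has no common level between arrays, the median of all genes lay at −0.41 and −0.20 in KO and −0.35 and −0.16 in WT at 2 h and 4 h from 0 h. All genes called there numbered 3412 and 853 in KO and 2289 and 832 in WT, against 2503 and 2315 in KO and 2546 and 2330 in WT after quantile normalization, and 31, 66, 43 and 537 between the labels at 0, 2 and 4 h and on average, against 422, 294, 306 and 1342. The members called in KO at 2 h were 5 on the deposited scale, 1 with the mean of probe sets and 4 at a threshold of 0.1, against 2, and 1 to 3 without one array. In KO at 4 h they were 0 on the deposited scale, without the filter and with the mean of probe sets, and 1 with a pseudocount of 1, against 2, and 0 to 2 without one array. Deviations from group means correlated between arrays of the same letter, A or B, at −0.042 to 0.1 over 15 group pairs. No large effect shared by a letter was seen, but with 2 arrays a group this cannot show whether the letters pair the arrays. With the replicate block of these letters the KO 4 h count was 1. In WT they were 1 at 2 h with the mean of probe sets, against 3, with 1 to 3 at 2 h and 1 to 2 at 4 h without one array. On average between the labels, 0 were called on the deposited scale, against 1, and 1 to 2 without one array. The KO difference of Sphk1 at 4 h from 0 h turned to −0.02 on the deposited scale, as did Degs1 (−0.18) and Sptlc2 (−0.04) in KO at 2 h and the averaged KO minus WT differences of Asah1 (−0.04) and Psap (−0.03). With the mean of probe sets Cib1 in WT at 2 h was 0.07 and Abca1 in WT at 4 h was 0.02. The causes were not tested. Of the members' values under these alternatives, 39 lost a call and 18 gained one. Values that were not called also changed sign, among them, in KO at 2 h, Cerk (−0.27, against 0.19) and S1pr1 (−0.23, against 0.23) on the deposited scale. Of 1920 counts over the gene lists, 210 moved by over 1.5 times.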
